A study of Sus scrofa with 6 samples.

Results

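The respiratory chain was followed on porcine Agilent arrays through the genes that build its 5 complexes, from both the mitochondrial and the nuclear genome. Members were the probes whose gene name in the array design starts with NDUF, SDH, UQCR, COX, ATP5 or MT-, or is CYC1, CYTB, ATP6, ATP8 or the name of a mitochondrial ND subunit. This gave 242 of 43603 probes, under 42 gene names, of which 238 probes and 41 names had enough signal to be tested, against 4088 named genes tested on the whole array. The names fell into 13 mitochondrially encoded genes (120 probes), 26 nuclear encoded subunits (116 probes), 1 assembly factor, COX17 (4 probes), and 2 names outside the chain, MT-2B and MT-III, which are metallothioneins caught by the MT- prefix. COX8H, a subunit of complex IV, stayed near background on all arrays with both of its 2 probes, so no difference is given for it.

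The tissue was renal cortex from 6 Large White pigs, each 3 months old, with 1 kidney and 1 array per pig. The 3 control kidneys were removed, sampled and frozen at once. The 3 ischemia kidneys were clamped, kept clamped for 60 min at 37 °C after removal, then rinsed through with cold University of Wisconsin preservation solution and stored at 4 °C for 24 h before sampling. Warm ischemia, flush and cold storage always came together, and no kidney was reperfused.

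The respiratory chain passes electrons from NADH and succinate to oxygen through complexes I to IV of the inner mitochondrial membrane, and complex V uses the resulting proton gradient to make ATP. Mitochondrial DNA encodes core subunits of complexes I, III, IV and V, whereas complex II and all other subunits come from nuclear genes. Mitochondrial RNA is transcribed as long precursors from both strands, and ND6 is the subunit encoded on the strand opposite to the other mitochondrial subunits. The proximal tubule, which fills much of the renal cortex, relies on this chain for transport.

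Mitochondrially encoded genes were measured by many overlapping probes of 60 bases, and the sequences below show what these probes read. The COX1 set is shown because the difference between the groups changed along this transcript. Each sequence is written as on the array, 5′ to 3′, named by the base of the named transcript where it starts, with no capitals in this set.
COX1, base 325: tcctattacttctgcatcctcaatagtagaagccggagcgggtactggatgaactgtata
COX1, base 1028: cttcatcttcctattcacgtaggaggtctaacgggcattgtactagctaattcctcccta
COX1, base 1475: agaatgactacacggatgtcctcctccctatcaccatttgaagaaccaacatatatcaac

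Probes of the same place often differed by a few letters. The pairs below share a start, and capitals mark the letters that an alignment of the pair does not match.
ND1, base 897, first probe: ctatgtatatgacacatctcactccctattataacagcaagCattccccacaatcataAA
ND1, base 897, second probe: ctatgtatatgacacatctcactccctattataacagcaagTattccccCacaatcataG
CYTB, base 1056, first probe: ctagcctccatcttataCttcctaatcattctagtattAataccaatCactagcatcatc
CYTB, base 1056, second probe: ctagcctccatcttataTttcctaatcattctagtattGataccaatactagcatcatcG

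Among 80 pairs of mitochondrial probes of the same gene that start within 30 bases of each other, the shared stretch, without 3 bases at each end, was identical in 14 and differed by at least 1 letter in 66. Their log2 differences between ischemia and control nonetheless lay close together, with a median gap of 0.03 and a largest gap of 0.17. The ND1 pair above read -0.07 and -0.15, and the CYTB pair -0.21 and -0.20. Such probes share their target and are not independent measurements of it.

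The next sequences are shown because ND3 had the lowest difference among the mitochondrial genes and ND6 was the exception to their direction. ND6 is read from the opposite strand, and its probe is rich in G and T (71.7% of its bases, where the mean over the probes of a gene was 25.0% to 46.5% in the other 12 genes).
ND3, base 283: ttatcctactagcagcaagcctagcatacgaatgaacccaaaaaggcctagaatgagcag
ND6, base 417: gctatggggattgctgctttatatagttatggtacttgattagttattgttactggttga

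A level below is the log2 processed signal relative to the 75th percentile of its array, so 0 is the signal of that percentile, and a difference is the mean level of the ischemia kidneys minus that of the controls. A gene is represented by its brightest tested probe. Adjusted p-values come from limma, adjusted by Benjamini-Hochberg over the 25013 probes that entered the fit, and the threshold was 0.05. No member gene passed it, and the lowest adjusted p among the chain's genes was 0.852 for a mitochondrial and 0.872 for a nuclear gene. The background was 1 probe of 25013 (0.004%) and 0 of 4088 named genes (0%), so at 3 kidneys a group this array called almost nothing anywhere. No member gene reached an unadjusted p of 0.05 by its brightest probe either, where 3.72% of named genes did so on the higher and 2.94% on the lower side. Counting every probe, 4 mitochondrial probes (of COX1, ND4 and ND5, all lower) and 1 nuclear probe (of ATP5E, higher) did, where the share over all probes was 3.32% on the lower and 2.98% on the higher side. All directions below are therefore descriptions of these 6 kidneys.

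Of the 13 mitochondrially encoded genes, 12 had a lower mean after ischemia and storage, and the median difference was -0.24. Over all named genes the median difference was 0.02, and 47.4% lay below 0. Of the 25 nuclear subunits tested, 20 had a higher mean and 5 a lower one, with a median difference of 0.22 and a range from -0.21 to 0.52, where 52.6% of all named genes had a higher mean. Probe by probe, 119 of 120 mitochondrial probes were below 0 and 99 of 112 nuclear probes above it, where 55.8% of all probes lay below 0 and 44.2% above. Genes of a complex and probes of a gene vary together between kidneys, so these counts do not add up independent evidence.

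**Figure D1:**
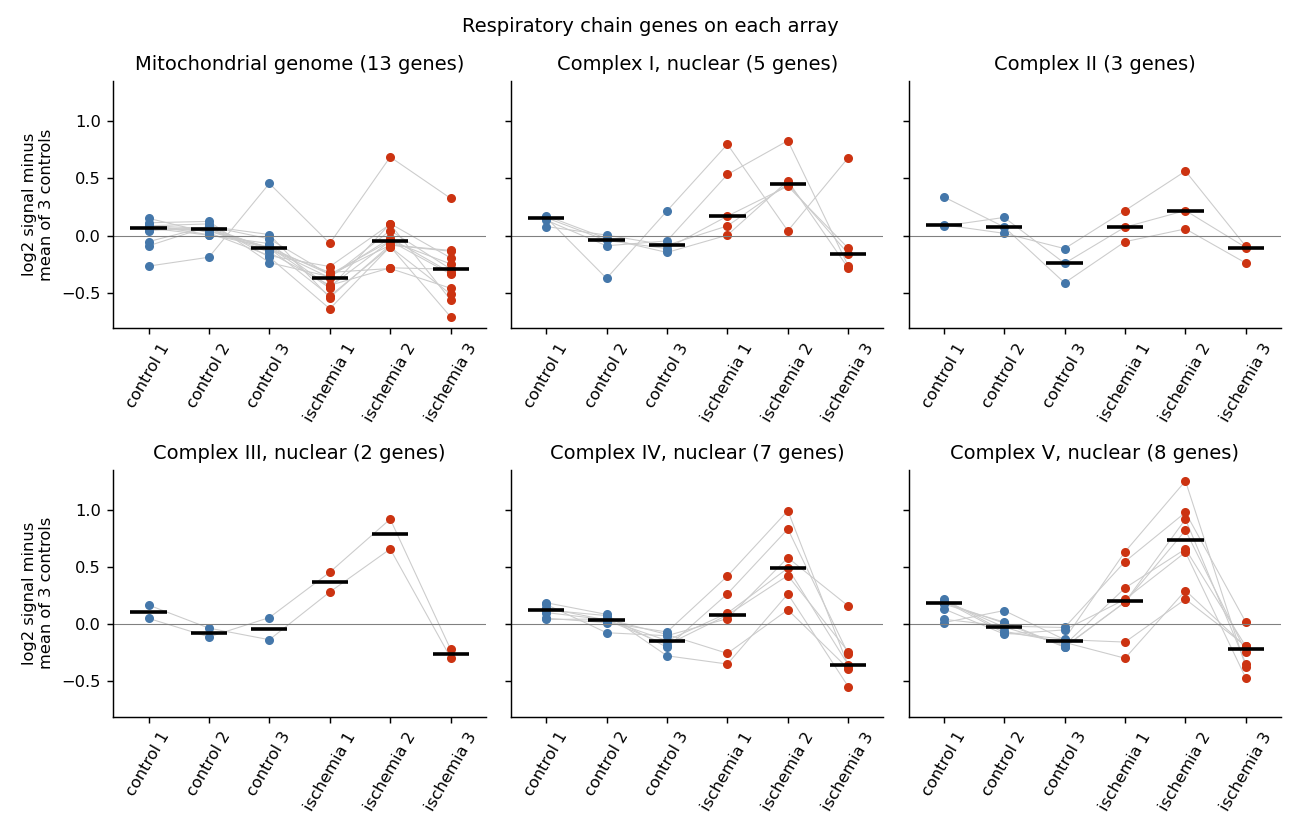
Log2 signal of each tested chain gene minus its mean over the 3 controls (y axis) on each of the 6 arrays (x axis), in 6 panels by genome and complex; points are genes, grey lines join a gene, black bars are medians, blue is control and red ischemia. By median, nuclear groups were highest on ischemia 2 and below the control mean on ischemia 3, and mitochondrial genes were lowest on ischemia 1 (-0.37) and ischemia 3 (-0.29).

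The mitochondrial genes moved together on the arrays. As deviations from the control mean, their median was 0.07, 0.06 and -0.11 on controls 1 to 3 and -0.37, -0.05 and -0.29 on ischemia kidneys 1 to 3. Ischemia 2 thus lay between the controls, and the lower mean came from ischemia 1 and 3. In bulk tissue, fewer cells of a type and less RNA per cell cannot be told apart.

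Complex I takes 7 of its core subunits from mitochondrial DNA, all in the membrane arm. ND3 had levels of 9.14, 9.15 and 8.86 in controls 1, 2 and 3 and 8.41, 8.96 and 8.34 in ischemia kidneys 1, 2 and 3, a difference of -0.48 (SE 0.24, adjusted p = 0.852). ND5 had levels of 7.52, 7.48 and 7.32 in controls 1, 2 and 3 and 7.12, 7.16 and 6.98 in ischemia kidneys 1, 2 and 3, a difference of -0.36 (SE 0.18, adjusted p = 0.865). For ND5 all ischemia kidneys lay below all controls, whereas for ND3 ischemia 2 reached into the control range.

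ND1 had levels of 9.24, 9.27 and 9.08 in controls 1, 2 and 3 and 8.83, 9.24 and 8.90 in ischemia kidneys 1, 2 and 3, a difference of -0.21 (SE 0.20, adjusted p = 0.941). ND2 had levels of 8.46, 8.47 and 8.11 in controls 1, 2 and 3 and 7.99, 8.33 and 8.03 in ischemia kidneys 1, 2 and 3, a difference of -0.24 (SE 0.21, adjusted p = 0.931). Both genes had ischemia 2 inside the control range, and for ND2 the control 3 value was close to the ischemia kidneys. ND4 had levels of 8.80, 8.79 and 8.64 in controls 1, 2 and 3 and 8.41, 8.70 and 8.41 in ischemia kidneys 1, 2 and 3, a difference of -0.24 (SE 0.19, adjusted p = 0.921). ND4L, whose reading frame overlaps that of ND4 on the same messenger, had levels of 6.56, 6.43 and 6.23 in controls 1, 2 and 3 and 6.13, 6.51 and 5.84 in ischemia kidneys 1, 2 and 3, a difference of -0.24 (SE 0.23, adjusted p = 0.941). The groups overlapped for both.

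ND6 had levels of -1.90, -1.82 and -1.17 in controls 1, 2 and 3 and -1.70, -0.94 and -1.30 in ischemia kidneys 1, 2 and 3, a difference of 0.32 (SE 0.29, adjusted p = 0.938). Its values were spread over both groups, with the highest in ischemia 2 and the lowest in control 1, and it is measured by 1 probe of low signal.

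Complex III has 1 mitochondrial subunit, cytochrome b, which carries the quinone-binding sites. CYTB had levels of 9.98, 9.91 and 9.84 in controls 1, 2 and 3 and 9.46, 9.86 and 9.66 in ischemia kidneys 1, 2 and 3, a difference of -0.25 (SE 0.19, adjusted p = 0.92), and all 21 of its probes were below 0. In complex IV, COX1 holds the oxygen-reducing centre. COX1 had levels of 10.39, 10.40 and 10.23 in controls 1, 2 and 3 and 9.81, 10.24 and 9.83 in ischemia kidneys 1, 2 and 3, a difference of -0.38 (SE 0.21, adjusted p = 0.876), and all 24 probes were below 0. Ischemia 2 overlapped the controls for COX1, and ischemia 1 and 3 lay lower.

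COX2, which takes electrons from cytochrome c, had levels of 9.67, 9.59 and 9.48 in controls 1, 2 and 3 and 9.12, 9.69 and 9.39 in ischemia kidneys 1, 2 and 3, a difference of -0.18 (SE 0.21, adjusted p = 0.944). COX3 had levels of 10.30, 10.47 and 10.39 in controls 1, 2 and 3 and 9.84, 10.30 and 10.26 in ischemia kidneys 1, 2 and 3, a difference of -0.25 (SE 0.21, adjusted p = 0.928). For both genes ischemia 1 was the lowest kidney and ischemia 2 was as high as a control.

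Complex V has 2 mitochondrial subunits, both in its membrane part. ATP6 had levels of 9.72, 9.85 and 9.74 in controls 1, 2 and 3 and 9.43, 9.69 and 9.64 in ischemia kidneys 1, 2 and 3, a difference of -0.19 (SE 0.18, adjusted p = 0.941). ATP8 had levels of 8.11, 8.09 and 7.88 in controls 1, 2 and 3 and 7.59, 7.75 and 7.73 in ischemia kidneys 1, 2 and 3, a difference of -0.34 (SE 0.18, adjusted p = 0.881). In both, every ischemia kidney was below every control by the brightest probe. For ATP6 this held for 1 of its 9 probes, and ATP8 has 1 probe. By brightest probe, 3 mitochondrial genes (ND5, ATP6 and ATP8) had groups that did not overlap, all lower, against 4.21% of named genes on that side. Over all 13 mitochondrial genes, 27 of 120 probes had groups that did not overlap, all lower, against 5.03% of all probes on that side.

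Nuclear subunits shared another order of kidneys. As deviations from the control mean, their median was 0.14, 0.00 and -0.13 on controls 1 to 3 and 0.19, 0.56 and -0.24 on ischemia kidneys 1 to 3. Ischemia 2 was above and ischemia 3 below the controls, so the higher mean rested on ischemia 2. Without ischemia 2 the median difference of the nuclear subunits was -0.02, and without ischemia 3 it was 0.39. No nuclear gene had groups that did not overlap by its brightest probe, where 7.58% of named genes did so on the higher side.

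In complex I, all 5 nuclear genes tested had a higher mean, with a median difference of 0.16, which was 0.11 without control 3, 0.03 without ischemia 2 and 0.30 without ischemia 3. NDUFC1, an accessory subunit of the membrane arm, had levels of 5.16, 4.94 and 4.98 in controls 1, 2 and 3 and 5.56, 5.86 and 4.76 in ischemia kidneys 1, 2 and 3, a difference of 0.37 (SE 0.30, adjusted p = 0.929). Ischemia 2 was its highest kidney.

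NDUFAB1, the mitochondrial acyl carrier protein, had levels of -2.94, -3.48 and -2.89 in controls 1, 2 and 3 and -2.30, -3.06 and -2.42 in ischemia kidneys 1, 2 and 3, a difference of 0.51 (SE 0.28, adjusted p = 0.884). It departed from the other complex I genes in that ischemia 1 and 3 were above all controls and ischemia 2 was not, on 1 probe of low signal. The accessory subunits NDUFB8 and NDUFB9 differed by 0.13 (SE 0.22, adjusted p = 0.954) and 0.07 (SE 0.25, adjusted p = 0.976), with levels of 6.39, 6.31 and 6.22 against 6.39, 6.76 and 6.15 and 6.51, 6.31 and 6.18 against 6.34, 6.81 and 6.05, controls first. Without ischemia 2 both had differences below 0, of -0.04 and -0.14.

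Complex II, succinate dehydrogenase, is wholly nuclear encoded and also belongs to the citric acid cycle. Its catalytic flavoprotein SDHA had levels of 6.03, 5.77 and 5.28 in controls 1, 2 and 3 and 5.64, 5.75 and 5.45 in ischemia kidneys 1, 2 and 3, a difference of -0.08 (SE 0.25, adjusted p = 0.972). The iron-sulphur subunit SDHB had levels of 7.16, 7.23 and 6.83 in controls 1, 2 and 3 and 7.15, 7.29 and 6.97 in ischemia kidneys 1, 2 and 3, a difference of 0.06 (SE 0.21, adjusted p = 0.972). The membrane anchor SDHD had levels of 6.82, 6.75 and 6.62 in controls 1, 2 and 3 and 6.95, 7.29 and 6.63 in ischemia kidneys 1, 2 and 3, a difference of 0.23 (SE 0.23, adjusted p = 0.941). The 3 genes had a median difference of 0.06, which was 0.10, 0.14 and -0.06 without controls 1, 2 and 3, -0.02 without ischemia 2 and 0.15 without ischemia 3, and the spread among controls of SDHA was wider than its difference.

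In complex III, UQCRB, a small subunit beside the quinone site, had levels of 5.87, 5.71 and 5.88 in controls 1, 2 and 3 and 6.28, 6.74 and 5.60 in ischemia kidneys 1, 2 and 3, a difference of 0.39 (SE 0.30, adjusted p = 0.921). UQCR10 had levels of 7.54, 7.33 and 7.23 in controls 1, 2 and 3 and 7.65, 8.03 and 7.07 in ischemia kidneys 1, 2 and 3, a difference of 0.22 (SE 0.28, adjusted p = 0.944). Ischemia 2 was the highest and ischemia 3 the lowest kidney for both.

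The nuclear subunits of complex IV surround the mitochondrial core and include tissue isoforms. COX6B had levels of 6.98, 6.94 and 6.86 in controls 1, 2 and 3 and 7.35, 7.92 and 6.56 in ischemia kidneys 1, 2 and 3, a difference of 0.35 (SE 0.34, adjusted p = 0.941), with ischemia kidneys on both sides of the controls. COX7A2, the widely expressed isoform of its subunit, had levels of 7.61, 7.56 and 7.28 in controls 1, 2 and 3 and 7.75, 8.32 and 7.23 in ischemia kidneys 1, 2 and 3, a difference of 0.28 (SE 0.30, adjusted p = 0.941). COX7A1, the isoform best known from heart and muscle, had levels of 7.83, 7.73 and 7.37 in controls 1, 2 and 3 and 7.29, 7.91 and 7.10 in ischemia kidneys 1, 2 and 3, a difference of -0.21 (SE 0.27, adjusted p = 0.944). The isoforms thus had differences of opposite sign, and the groups overlapped for each.

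COX7C had levels of 7.47, 7.23 and 7.20 in controls 1, 2 and 3 and 7.35, 7.88 and 7.46 in ischemia kidneys 1, 2 and 3, a difference of 0.26 (SE 0.22, adjusted p = 0.93). By brightest probe it was the nuclear complex IV gene whose difference was above 0 on all 3 slides, but another COX7C probe read -0.07 on slide 3. The dimmer probe of COX6B, unlike its brightest one, was also above 0 on slides 1 to 3 (0.53, 0.64 and 0.78). COX6C had levels of 7.21, 7.21 and 7.07 in controls 1, 2 and 3 and 6.91, 7.29 and 6.77 in ischemia kidneys 1, 2 and 3, a difference of -0.17 (SE 0.21, adjusted p = 0.944). COX6A1, the liver-type isoform, differed by 0.09 (SE 0.23, adjusted p = 0.967), and NDUFA4, a complex IV subunit first described in complex I, by 0.08 (SE 0.26, adjusted p = 0.973). With 5 genes higher and 2 lower, complex IV had a nuclear median difference of 0.09, beside a mitochondrial median of -0.25 for COX1, COX2 and COX3. The nuclear median of complex IV was 0.16 without control 1, 0.01 without control 3, -0.08 without ischemia 2 and 0.29 without ischemia 3.

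The 8 nuclear genes of complex V had a median difference of 0.26, which was -0.05 without ischemia 2, 0.16 without control 3 and 0.50 without ischemia 3. ATP5I, the e subunit of the membrane part, had levels of 6.86, 6.80 and 6.79 in controls 1, 2 and 3 and 7.37, 7.80 and 6.83 in ischemia kidneys 1, 2 and 3, a difference of 0.52 (SE 0.27, adjusted p = 0.872). ATP5G1, a gene for the c subunit of the rotor ring, had levels of 7.22, 6.94 and 6.88 in controls 1, 2 and 3 and 7.65, 8.27 and 6.64 in ischemia kidneys 1, 2 and 3, a difference of 0.50 (SE 0.40, adjusted p = 0.921). For ATP5I, ischemia 3 lay within the controls and the other ischemia kidneys above them, whereas for ATP5G1 it lay below them. ATP5G2, which encodes the same mature c subunit, differed by -0.07 (SE 0.24, adjusted p = 0.973).

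The alpha (ATP5A1) and beta (ATP5B) subunits of the F1 head varied with the same kidneys. ATP5A1 had levels of 8.04, 7.86 and 7.65 in controls 1, 2 and 3 and 8.05, 8.68 and 7.61 in ischemia kidneys 1, 2 and 3, a difference of 0.26 (SE 0.30, adjusted p = 0.944), and all 14 probes were above 0. ATP5B had levels of 8.08, 7.86 and 7.90 in controls 1, 2 and 3 and 8.16, 8.58 and 7.47 in ischemia kidneys 1, 2 and 3, a difference of 0.13 (SE 0.30, adjusted p = 0.965). ATP5F1, in the stator stalk, differed by 0.26 (SE 0.27, adjusted p = 0.941), and ATP5J2, the f subunit, by 0.26 (SE 0.33, adjusted p = 0.944). Without ischemia 2, ATP5A1, ATP5B and ATP5J2 had differences of -0.02, -0.13 and -0.08.

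ATP5E, the epsilon subunit, had probes that disagreed in sign. The brighter probe had levels of 8.46, 8.56 and 8.31 in controls 1, 2 and 3 and 8.29, 8.66 and 8.25 in ischemia kidneys 1, 2 and 3, a difference of -0.04 (SE 0.21, adjusted p = 0.982). The dimmer probe read -1.54, -0.83 and -0.99 in controls and 0.00, -0.74 and 0.04 in ischemia kidneys, a difference of 0.89 (SE 0.30, adjusted p = 0.722). It was the nuclear probe of the rule whose groups did not overlap, where 5.88% of all probes did so on the higher side. SDHA and SDHB also had probes on both sides of 0, within -0.23 to 0.12. The copper chaperone COX17, which assembles complex IV, had levels of 6.56, 6.43 and 6.58 in controls 1, 2 and 3 and 6.78, 7.18 and 6.28 in ischemia kidneys 1, 2 and 3, a difference of 0.22 (SE 0.26, adjusted p = 0.944).

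Set by genome within a kidney, the nuclear median deviation minus the mitochondrial one was 0.08, -0.05 and -0.03 in the controls and 0.56, 0.61 and 0.05 in ischemia kidneys 1 to 3. This gap does not depend on how arrays are scaled to each other by a constant. Ischemia 1 and 2 stood above all controls, ischemia 3 lay within them, and the nuclear median difference minus the mitochondrial one was 0.46. On the scaled levels, the gap came with low mitochondrial genes in ischemia 1 and with high nuclear ones in ischemia 2. Unlike the gap, this split depends on the scaling. Without scaling, the mitochondrial median log2 signal was 17.12 in ischemia 1 and 17.13, 17.22 and 16.92 in controls 1 to 3. The nuclear median without scaling was 16.05 in ischemia 1 and 15.21, 15.27 and 14.94 in controls 1 to 3.

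Each slide carried 1 control and 1 ischemia array, which allows a comparison within slides. On slide 1 (ischemia 2 and control 1) the mitochondrial median difference was -0.11 and the nuclear one 0.41. On slide 2 (ischemia 3 and control 2) they were -0.36 and -0.26, and on slide 3 (ischemia 1 and control 3) -0.31 and 0.33. The mitochondrial median was below 0 on every slide, with 9, 12 and 13 of 13 genes lower, whereas the nuclear median changed sign on slide 2, where 22 of 25 genes were lower. Controls always occupied array position 4 and ischemia kidneys position 3, so the effects of place on the slide and of group cannot be told apart.

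**Figure D2:**
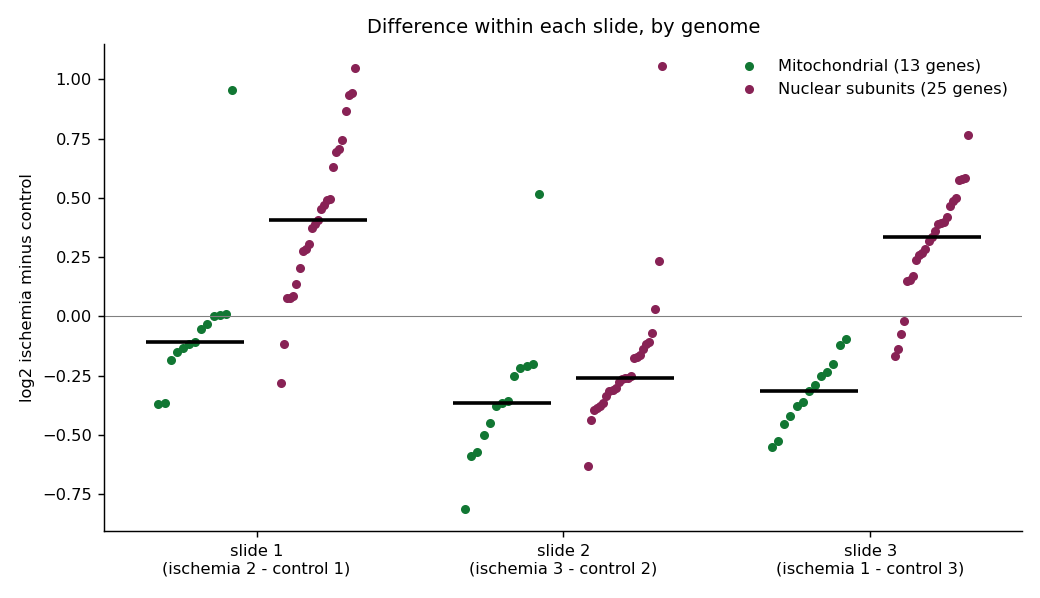
Difference between the ischemia and the control array of each slide (y axis, log2) for 13 mitochondrial genes (green) and 25 nuclear subunits (purple); points are genes sorted by value and black bars are medians. Mitochondrial medians were below 0 on all 3 slides and the nuclear median was below 0 on slide 2.

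The mitochondrial difference varied along some of the transcripts. For COX1 it ran from -0.64 (SE 0.27) at base 325 to -0.20 at base 1475, and the correlation between difference and start over its 24 probes was 0.84. Over the probes of CYTB, ND1 and COX3 the correlation was 0.91, 0.89 and 0.84. For ND2, ND4 and ATP6 it was -0.43, -0.02 and 0.22. For the nuclear ATP5A1, ATP5B, ATP5F1, SDHB and SDHD it was 0.19, 0.33, 0.52, 0.50 and 0.51. Probes of a gene share target and arrays, and many overlap.

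Signal also rose along these transcripts, with correlations between signal and start of 0.46 for COX1, 0.77 for CYTB, 0.92 for ND1 and 0.69 for COX3, but also 0.94 for ATP5A1. Difference and signal correlated at 0.56 for COX1, 0.74 for CYTB, 0.85 for ND1 and 0.65 for COX3. For ND2, ND4 and ATP6 this correlation was -0.26, -0.13 and 0.36, and for ATP5A1 0.09. The part of signal in the pattern was not tested. Per kidney, the mean of the 12 COX1 probes nearer the 3′ end minus that of the 12 nearer the 5′ end, as deviations from the control mean, was -0.09, 0.05 and 0.04 in controls and 0.05, 0.07 and 0.29 in ischemia kidneys. Ischemia 3 stood above the other kidneys and ischemia 1 lay beside the controls. In ND1 the same gap was -0.16, 0.05 and 0.11 against -0.03, 0.06 and 0.34. Over 250 nuclear gene names with at least 6 probes spread over at least 300 bases, the gap between groups had a median of 0.04 and its 5th and 95th percentiles were -0.19 and 0.27, which holds the 0.14 of COX1 and the 0.12 of ND1.

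**Figure D3:**
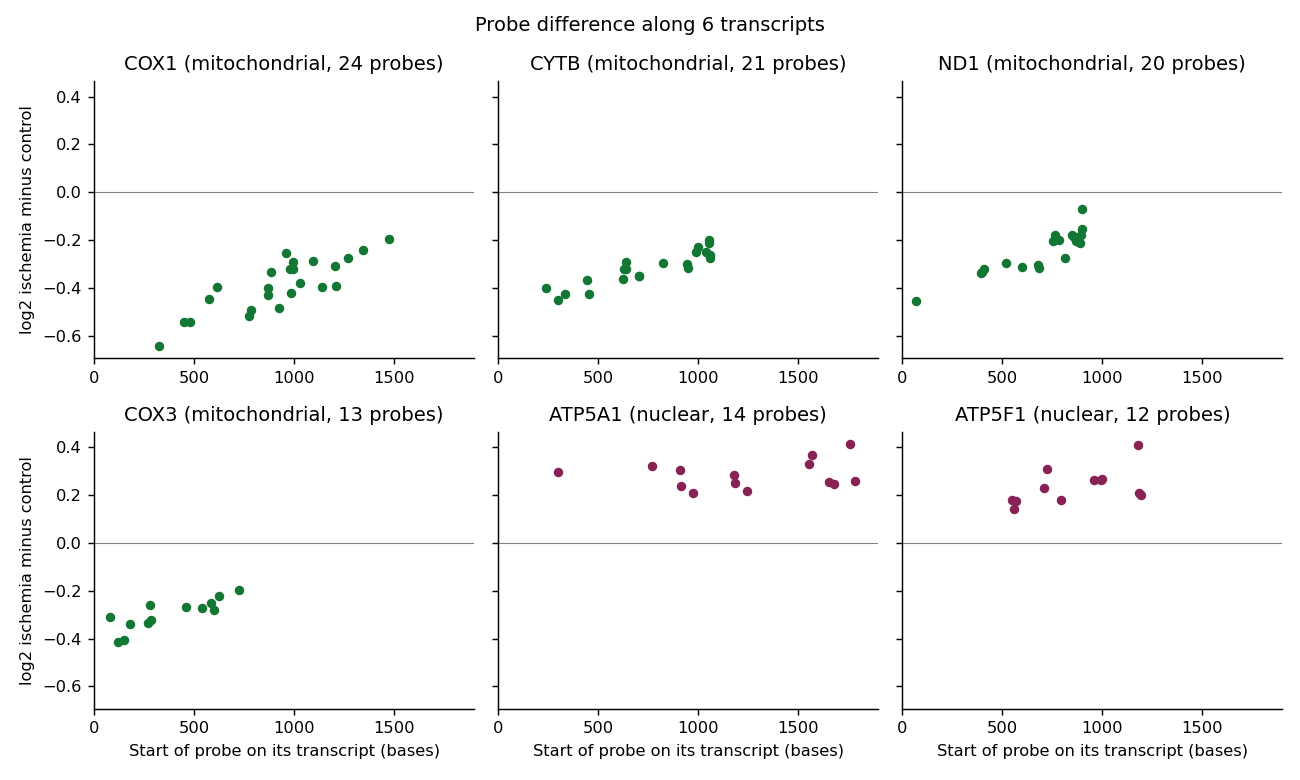
Log2 difference between ischemia and control of each tested probe (y axis) against its start on the named transcript in bases (x axis), for COX1, CYTB, ND1 and COX3 (mitochondrial, green) and ATP5A1 and ATP5F1 (nuclear, purple). COX1 ran from -0.64 at its first probe to -0.20 at its last, while all ATP5A1 probes lay between 0.21 and 0.41.

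The size of the mitochondrial difference depended on the scaling between arrays. The 75th percentile of the signal was 255 to 268 on the controls and 418, 246 and 293 on ischemia kidneys 1 to 3. With no scaling the mitochondrial median difference was -0.0037 and the nuclear one 0.46, while the median of all named genes was 0.26. Median centring gave -0.10 and 0.37 with all named genes at 0.17, and quantile normalization gave -0.08 and 0.28 with all named genes at 0.04. Under quantile normalization ND1, CYTB, COX2, COX3 and ATP6 had differences above 0, of at most 0.05. In each of these the mitochondrial median lay below that of all named genes and the nuclear median above it.

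**Figure D4:**
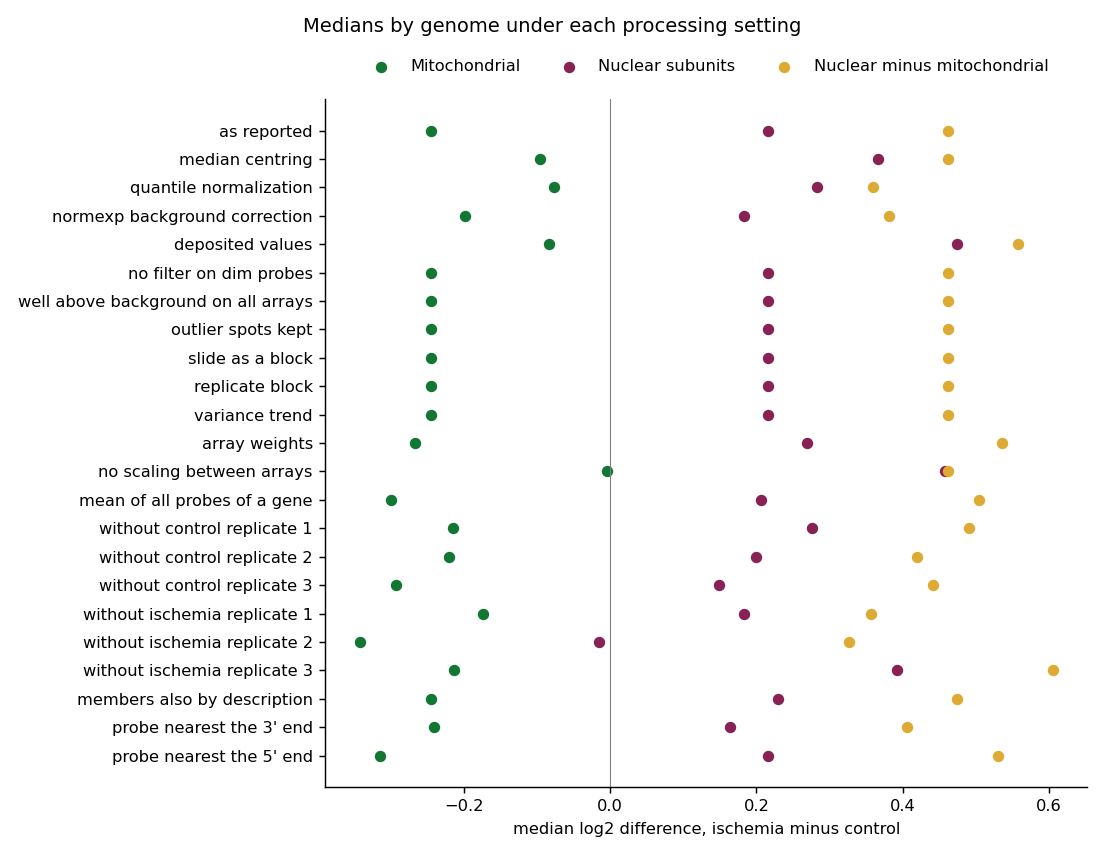
Median log2 difference between ischemia and control (x axis) of mitochondrial genes (green), nuclear subunits (purple) and nuclear minus mitochondrial (yellow) under each processing setting (y axis). The mitochondrial median ran from -0.34 to -0.0037, and nuclear minus mitochondrial from 0.33 to 0.60.

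Names in the array design miss part of the chain, so members were also sought through updated symbols, accessions and descriptions, which added 69 probes and 32 genes, 25 of them tested. Of the 18 further nuclear subunits tested, 15 had a higher mean, with a median difference of 0.24, beside 0.22 by the rule, and a range from -0.36 to 1.88. They varied with the same kidneys: their median deviation from the control mean was 0.27, 0.56 and -0.25 in ischemia kidneys 1 to 3, and on slide 2 14 of 18 were lower. The value of 1.88 belongs to COX8A (SE 1.44, adjusted p = 0.916), whose single probe ranged from -0.74 to 3.94 among the controls alone. The Rieske protein UQCRFS1 differed by 0.30 (SE 0.31, adjusted p = 0.941) and the complex I assembly factor NDUFAF4 by 0.50 (SE 0.23, adjusted p = 0.836). For NDUFAF4 the groups did not overlap, as for 7.58% of named genes on the higher side.

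Markers of cell types were read beside these values. All 8 proximal tubule markers tested had a lower mean, with a median difference of -0.68 and no adjusted p under 0.73, and their summed level was 9.36, 9.09 and 8.80 in controls and 8.54, 8.38 and 8.34 in ischemia kidneys, without overlap. Thick ascending limb and distal tubule markers, from another segment rich in mitochondria, had 3 of 4 genes higher and a median difference of 0.04. All 3 collecting duct markers tested had a lower mean, with a median difference of -0.41 and overlapping groups. From the list for brown fat only CIDEA was tested, and 1 gene cannot show whether such fat was present in these samples. CIDEA read 3.48, 3.40 and 2.33 in controls and 1.82, 1.93 and 2.13 in ischemia kidneys, a difference of -1.11 (SE 0.33, adjusted p = 0.657) without overlap. Median differences were 0.11 for 5 endothelial, 0.30 for 4 fibroblast and mural, -0.23 for 4 leukocyte, 0.38 for 2 podocyte and 0.14 for 3 skeletal muscle markers. Some members lay far from these medians. COL1A2 differed by -1.64 where 3 of 4 fibroblast and mural markers were higher, and MYLPF by -2.34 where 2 of 3 muscle markers were. Among leukocyte markers CD163 differed by 1.42 and CD247 by -1.33, and among endothelial ones TEK by 0.78. For each of these named genes the groups did not overlap, as for 7.58% of all named genes on the higher and 4.21% on the lower side. Among the 8 proximal tubule markers this held for 1, SLC22A6 (-1.03). The COL1A2 probe had low signal, with levels from -3.90 to -1.43. No marker passed, and the part of these lists in the results was not tested.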

How the data were processed

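Spot intensity in the deposited scanner files was background-subtracted and spatially detrended within each array by Agilent Feature Extraction, version 10.10.1.1 per the file headers and 11.5.1.1 per the submitters' processing notes, which also name R 2.15.2 and limma. A second deposited table holds the authors' own log2 values, whose scaling between arrays and direction of any centring are not stated by the labels or headers; it served as an alternative. It held 6 of the mitochondrial genes and 11 of the nuclear subunits among the probes used.

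Levels are the log2 processed signal relative to the 75th percentile of the array, leaving out control and outlier spots. Probes well above background on at least 3 of 6 arrays, with a value on at least 5, were tested with limma 3.58.1 in R 4.3.3 (lmFit, eBayes, two-sided, Benjamini-Hochberg over all probes tested). The procedure was tested on simulated data. It recovered 0.4% of 1.5-fold, 2.8% of 2-fold, 57.6% of 4-fold and 76% of 8-fold changes. By brightest probe, the largest difference of a chain gene found by its name was 1.43-fold, for ATP5I. The lack of calls among these genes therefore does not show that they were unchanged. Arrays correlated at 0.960 to 0.983 with each other, and between 52.6% and 61.4% of spots per array were well above background. The number of arrays limits the precision, and an exact permutation test of 3 against 3 cannot give a p under 0.1.

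The text names every mitochondrial gene, up to 5 genes of smallest unadjusted p in each nuclear group, chosen isoforms and catalytic subunits, and genes whose probes disagreed in sign. The values of 1 gene that this rule would name are not reported here. Members and lists were chosen with earlier results of these data known. Probes were not placed on a genome. Replicate numbers did not pair the samples: deviations of same-numbered kidneys correlated at -0.35, -0.17 and -0.05, and arrays of a slide at 0.34, 0.10 and 0.33. Alternatives covered scaling, background, filters, slide or replicate block, variance trend, array weights, choice of probe and each kidney left out; no scaling and the choice of the first or last probe were added after the data were seen.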

Additional observations from a re-analysis of the deposited data

How the results depend on the processing

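No member gene passed an adjusted p of 0.05 (limma) under any setting run, and with no passing gene there was no call to lose. Over all probes 1 passed, with 0 under quantile normalization, no filter on dim probes, slide as a block, replicate block and mean of all probes of a gene, 1 under outlier spots kept, 3 under normexp background correction, deposited values, well above background on all arrays and variance trend, 5 under no scaling between arrays, 9 under array weights, 11 under median centring, and 0 to 1 with a kidney left out. Under median centring the median difference was -0.10 for mitochondrially encoded genes. Under quantile normalization the median difference was -0.0769 for mitochondrially encoded genes. With the deposited values the median difference was -0.083 for mitochondrially encoded genes (6 genes), 0.47 for complex I nuclear subunits (1 gene), 0.25 for complex II subunits (2 genes) and 0.76 for complex V nuclear subunits (3 genes). The median of all named genes with those values was 0.20. Under no scaling between arrays the median difference was -0.00368 for mitochondrially encoded genes, 0.41 for complex I nuclear subunits and 0.30 for complex II subunits. The sign turned under median centring for SDHA (0.0713). The sign turned under quantile normalization for ND1 (0.00592), CYTB (0.00227), COX2 (0.0453), COX3 (0.00241) and ATP6 (0.0539). The sign turned with the deposited values for SDHA (0.19), COX6C (0.0645) and COX7A1 (0.00152). The sign turned under array weights for SDHB (-0.0419). The sign turned under no scaling between arrays for ND1 (0.0355), ND2 (0.00577), ND4 (8.13e-05), COX2 (0.0579), ATP6 (0.0533), SDHA (0.16), COX6C (0.069) and COX7A1 (0.0319). The sign turned with the probe nearest the 5' end for SDHB (-0.00312). With each kidney left out in turn, the median differences that crossed 0 ran from -0.015 to 0.39 for nuclear encoded subunits, -0.0582 to 0.15 for complex II subunits, -0.0793 to 0.29 for complex IV nuclear subunits and -0.0494 to 0.50 for complex V nuclear subunits, and the genes whose difference did so from -0.29 to 0.0908 for SDHA, -0.14 to 0.24 for NDUFB9, -0.0582 to 0.15 for SDHB, -0.0793 to 0.25 for COX6A1, -0.0372 to 0.27 for NDUFB8, -0.0051 to 0.47 for UQCR10, -0.0235 to 0.51 for ATP5A1, -0.0752 to 0.56 for ATP5J2 and -0.13 to 0.42 for ATP5B. With the replicate number as a block, the mitochondrial and nuclear medians were -0.24 and 0.22; the numbers did not pair the samples, and this block, like the slide block, changed no call among member genes. The causes of these changes were not tested. The deposited table held few member genes, and NDUFAB1, ND6 and the dimmer ATP5E probe, although well above background on all arrays, had low signal.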

Other observations

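All 13 genes of the mitochondrial ribosome that were tested, which translates the mitochondrially encoded subunits, had a higher mean after ischemia and storage, with a median difference of 0.19 and a range from 0.06 to 0.44, where 52.6% of all named genes had a higher mean. Their median deviation from the control mean was 0.19, -0.01 and -0.15 in controls and 0.16, 0.39 and -0.02 in ischemia kidneys 1 to 3, so ischemia 2 alone lay above the controls, and on slide 2 8 of 13 were lower. None passed in limma (lowest adjusted p = 0.808, for MRPL52). Cytochrome c (CYCS), which carries electrons from complex III to complex IV, had a difference of 1.24 (SE 0.42, adjusted p = 0.719). Of the 9 genes tested from the list of electron carriers and feeding enzymes, mostly genes of coenzyme Q synthesis or binding, 8 had a higher mean. COQ10A, a coenzyme Q binding protein, was the exception with -0.96 (SE 0.25, adjusted p = 0.594), at low signal (levels from -2.34 to -0.93). Besides CYCS and the coenzyme Q genes, only ETFA was tested, with a difference of 0.0047 (SE 0.20, adjusted p = 0.998).

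The carriers and channels list had 9 of 12 genes higher and a median difference of 0.09. VDAC1 was at 0.22 and the adenine nucleotide carrier SLC25A5 at 0.18, whereas the brighter adenine nucleotide carrier SLC25A6 was at -0.08. The other lower genes were MCU at -0.16 and AK4 at -0.92 (SE 0.31, adjusted p = 0.714). For AK4 the groups did not overlap, as for 4.21% of named genes on the lower side. Import and chaperone genes had 4 of 6 higher, with a median of 0.14, and genes of mitochondrial transcription and biogenesis 4 of 7, also with a median of 0.14. TFAM, which packages mitochondrial DNA and starts its transcription, had a difference of -0.05 (SE 0.19, adjusted p = 0.974). The metallothioneins MT-2B and MT-III, which bind zinc and copper, had differences of -0.02 and 0.29, with overlapping groups.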
